A study of Homo sapiens with 4 samples.

Results

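The HSP90 chaperone genes HSP90AA1, HSP90AB1 and HSP90B1, with the processed gene copy HSP90AA2P, were followed through RNA immunoprecipitation sequencing (RIP-seq) of YTHDF3. RIP-seq recovers the RNA that an antibody brings down with its protein (IP) and sets it beside RNA that was not precipitated (input). The 4 genes were found by symbol in both deposited tables, and are 4 of 3905 genes listed in either table and of 2083 listed in both. The family was chosen on the IP levels and folds given below, which are therefore a description and carry no test. The 4 libraries were 1 IP and 1 input from SiHa, an established human cervical cancer line, and 1 IP and 1 input from SiHa cells labelled as a YTHDF3 knockout. The labels give no treatment for any of them. The sources used here do not tell whether the knockout cells are a single clone, and a control antibody was not analysed here. With 1 library in each group no difference below has a replicate error.

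HSP90 proteins are ATP-driven chaperones that bring kinases, steroid receptors and other client proteins into their active shape. HSP90AA1 encodes the alpha form of the cytosol, which is induced by heat and other stress, and HSP90AB1 the beta form, which is made more evenly. HSP90B1 encodes GRP94, the form of the endoplasmic reticulum (ER), whose clients include integrins and Toll-like receptors. YTHDF3 is a cytoplasmic protein that binds mRNA carrying N6-methyladenosine (m6A) and is linked to translation and decay of that mRNA. The design sets RNA recovered with the YTHDF3 antibody against input, in cells with YTHDF3 and in cells labelled as lacking it.

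The members lie on 4 chromosomes of GRCh38.p14 in the RefSeq annotation. HSP90AA1 (ENSG00000080824) lies on chromosome 14 from 102080742 to 102139749, and HSP90AB1 (ENSG00000096384) on chromosome 6 from 44246194 to 44253883. HSP90B1 (ENSG00000166598) lies on chromosome 12 from 103930410 to 103947926. HSP90AA2P (ENSG00000224411) is a processed pseudogene on chromosome 11 from 27888171 to 27891092. It was the only one of 13 HSP90 pseudogenes in RefSeq that was listed, and it was listed in both tables.

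The promoter stretches below are shown because they set the cytosolic forms apart from the ER form. A link between them and any difference between the tables was not tested. RefSeq promoters of 300 bases (GRCh38.p14), matched by symbol for HSP90AA1, HSP90AB1, HSP90B1 and TRAP1, were searched on both strands for a heat shock element of 3 units, TTCNNGAANNTTC or GAANNTTCNNGAA, the kind of site that heat shock factors bind. The ER stress element, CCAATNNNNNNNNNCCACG or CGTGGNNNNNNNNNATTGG, was searched in the same way; it is known from promoters of ER chaperones. The heat shock element was present in 0.490% of 35116 promoters and the ER stress element in 0.0769%. Capitals mark the matches, and each stretch is written 5′ to 3′ on the strand of its gene.
HSP90AA1, chr14:102087108-102087144, minus strand, 100 to 64 bases before the start at 102087044: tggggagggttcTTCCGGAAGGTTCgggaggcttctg
HSP90AB1, chr6:44247766-44247855, plus strand, 177 to 88 bases before the start at 44247943: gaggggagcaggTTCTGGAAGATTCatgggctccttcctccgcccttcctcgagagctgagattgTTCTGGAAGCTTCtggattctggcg
HSP90B1, chr12:103930204-103930351, plus strand, 206 to 59 bases before the start at 103930410: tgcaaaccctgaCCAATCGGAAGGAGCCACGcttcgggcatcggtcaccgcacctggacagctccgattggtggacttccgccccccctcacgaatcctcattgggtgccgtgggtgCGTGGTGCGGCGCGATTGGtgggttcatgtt
HSP90AA1 held 1 heat shock element and HSP90AB1 held 2, each at 1 of the start sites in the table (2 for HSP90AA1 and 3 for HSP90AB1). HSP90B1 held 2 ER stress elements in opposite orientations and 0 heat shock elements. These matches are letters in a window, and binding was not measured here.

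The deposited tables held only enriched genes. They listed 3648 genes in SiHa, 27.0% of 13529 tested, and 2340 in the knockout, 21.2% of 11034 tested. All 4 members were listed in both. YTHDF3 itself was listed in SiHa, with 25.8 in the IP and 11.7 in the input, and was not listed in the knockout, where its level is not known. The sources used here name neither the unit of the levels nor whether they are per transcript length, so an order of levels between genes is that of the deposited values only. Sequencing depth is unknown.

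HSP90B1 had the highest IP level of all listed genes in both tables. It stood at 2309.5 in the SiHa IP against 294 in the SiHa input, and at 2801 in the knockout IP against 163 in the knockout input. In the authors' deposited tables its log2 fold was 3.98 in SiHa, or 15.8-fold, and 4.91 in the knockout, or 30.1-fold. The IP libraries were the high ones and the inputs the low ones. By fold HSP90B1 was rank 12 of 3648 in SiHa and rank 7 of 2340 in the knockout.

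HSP90AA1 came next among the members, with the second highest IP level of the SiHa table and rank 3 in the knockout table. Its level was 1838 in the SiHa IP, 269 in the SiHa input, 2545 in the knockout IP and 166 in the knockout input. The authors' deposited tables gave it a log2 fold of 3.78 in SiHa, or 13.7-fold, and 4.75 in the knockout, or 26.9-fold, ranks 19 and 21. As for HSP90B1, the deposited IP level was higher and the deposited input level lower in the knockout, and the direction of the IP level turned when scaled to library totals.

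HSP90AB1, the beta form, had the lowest fold of the 4 members in each table. Its level was 936 in the SiHa IP and 174 in the SiHa input, then 1347 in the knockout IP and 129.9 in the knockout input. The authors' deposited tables placed it at log2 folds of 3.43 in SiHa, or 10.8-fold, and 4.19 in the knockout, or 18.2-fold, ranks 78 and 139. It was nevertheless rank 14 by IP level in SiHa and rank 6 in the knockout.

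HSP90AA2P had the highest fold of the members in SiHa, at far lower levels. The copy stood at 32.7 in the SiHa IP, 3.74 in the SiHa input, 31.6 in the knockout IP and 2.42 in the knockout input. In the authors' deposited tables its log2 fold was 4.14 in SiHa, or 17.6-fold, and 4.52 in the knockout, or 22.9-fold, ranks 7 and 58. Its IP level amounted to 1.78% of that of HSP90AA1 in SiHa and 1.24% in the knockout, and its input level to 1.39% and 1.45%. Reads can be split between a processed copy and its parent, so the values of HSP90AA2P are uncertain. Adding the copy to HSP90AA1 moved the log2 fold of the parent by under 0.01 in each table, to 3.78 and 4.75.

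**Figure D1:**
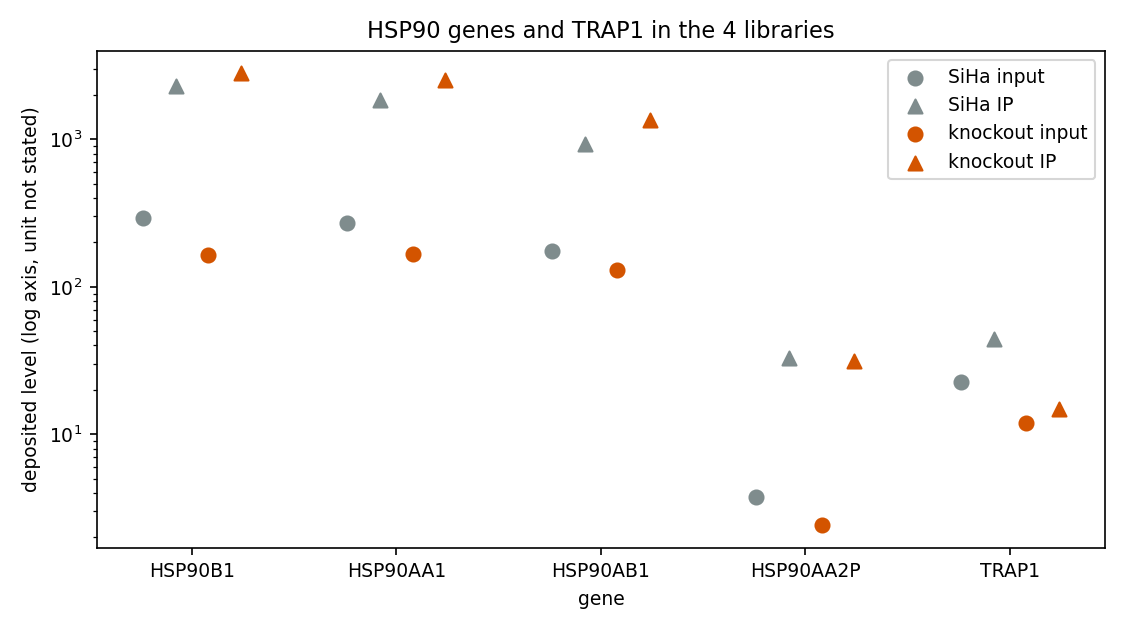
Deposited level of each HSP90 gene and of TRAP1 in the 4 libraries, on a log axis, with circles for input, triangles for IP, grey for SiHa and orange for the knockout, 1 library per point. For HSP90B1, HSP90AA1 and HSP90AB1 the knockout triangles lie above and the knockout circles below those of SiHa as deposited, whereas for TRAP1 both knockout points lie below. Scaling to library totals turns the IP direction of HSP90B1 and HSP90AA1. Centring on the shared genes, a different adjustment, turns the input direction of HSP90AB1.

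The members' log2 folds spanned 0.70 in SiHa and 0.73 in the knockout, around medians of 3.88 and 4.63, and all listed genes had medians of 2.04 and 2.43 in the authors' deposited tables, with quartiles of 1.63 and 2.50 for SiHa and of 1.78 and 3.22 for the knockout. A log2 fold of at least 3 was reached by all 4 members in both tables, and by 8.55% of listed genes in SiHa and 30.8% in the knockout. The rule chose the members on this contrast, so nothing is read from that share. The deposited p-value was 0 for HSP90AA1 and HSP90B1 in both tables, below the smallest value the authors wrote. HSP90AB1 had a deposited p-value of 5.08e-266 for SiHa and 0 for the knockout. Those of HSP90AA2P were 3.67e-12 and 2.45e-11. These deposited p-values follow a sampling model that takes levels as read counts, and measure no spread between cultures.

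**Figure D2:**
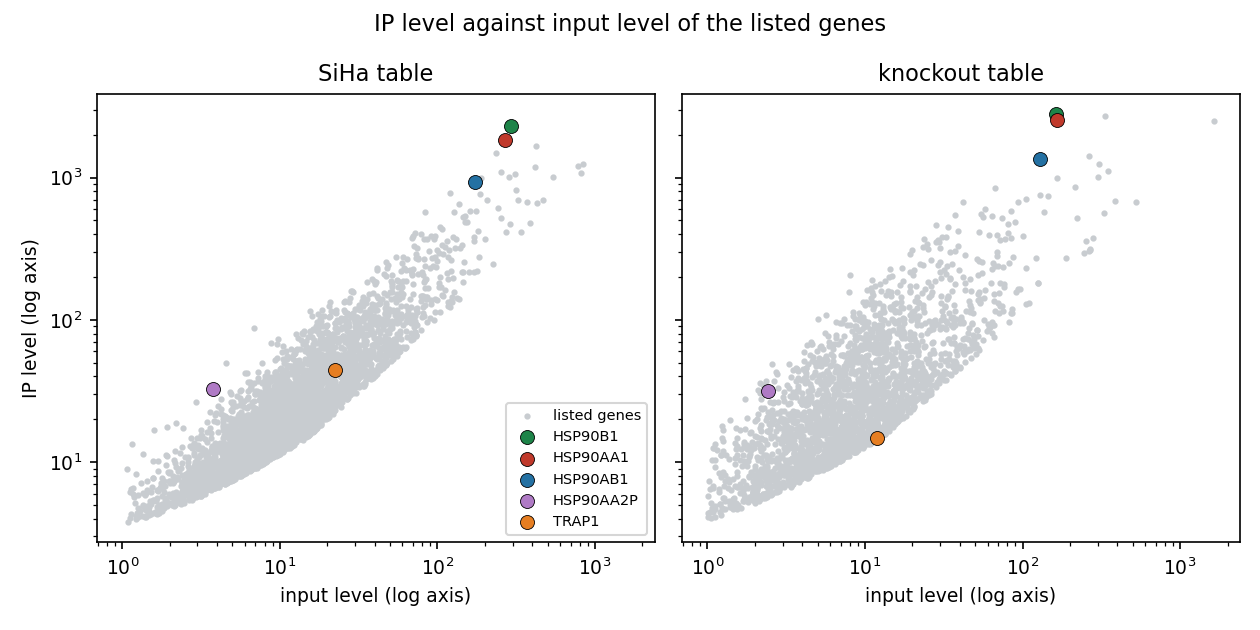
IP level against input level of every listed gene in the SiHa table (left) and the knockout table (right), both axes log, with the HSP90 genes and TRAP1 in colour. HSP90B1 and HSP90AA1 sit at the top of each cloud, HSP90AA2P on its upper edge at an input level under 4, and TRAP1 on the lower edge in the knockout.

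Deposited log2 folds exceed the log2 ratio of IP to input level by the same amount for every gene of a table (1.01 for SiHa, 0.81 for the knockout). Without it the IP to input ratio of HSP90B1 was 7.86 for SiHa and 17.1 for the knockout. The same ratio was 6.83 and 15.3 for HSP90AA1, 5.38 and 10.4 for HSP90AB1, and 8.76 and 13.1 for HSP90AA2P. The order of the members was unaffected within a table.

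The fold of every member was higher in the knockout than in SiHa. The difference in log2 fold, knockout minus SiHa, was 0.97 for HSP90AA1, 0.93 for HSP90B1, 0.75 for HSP90AB1 and 0.38 for HSP90AA2P, from the authors' deposited tables. Over the 2083 genes listed in both tables the median difference was 0.18, with quartiles of -0.23 and 0.70, and 60.1% of them were higher in the knockout. The 3 coding members thus lay above the upper quartile, and the copy inside the quartiles. None of the 4 reached a difference of 1 in deposited log2 fold, that is a doubling of the fold, which 13.6% of shared genes did. This depends on the amount added in each table. Without it the difference was 1.16 for HSP90AA1, 1.13 for HSP90B1, 0.95 for HSP90AB1 and 0.57 for HSP90AA2P. The rule took the folds of both tables into account, so these differences are given without a test.

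**Figure D3:**
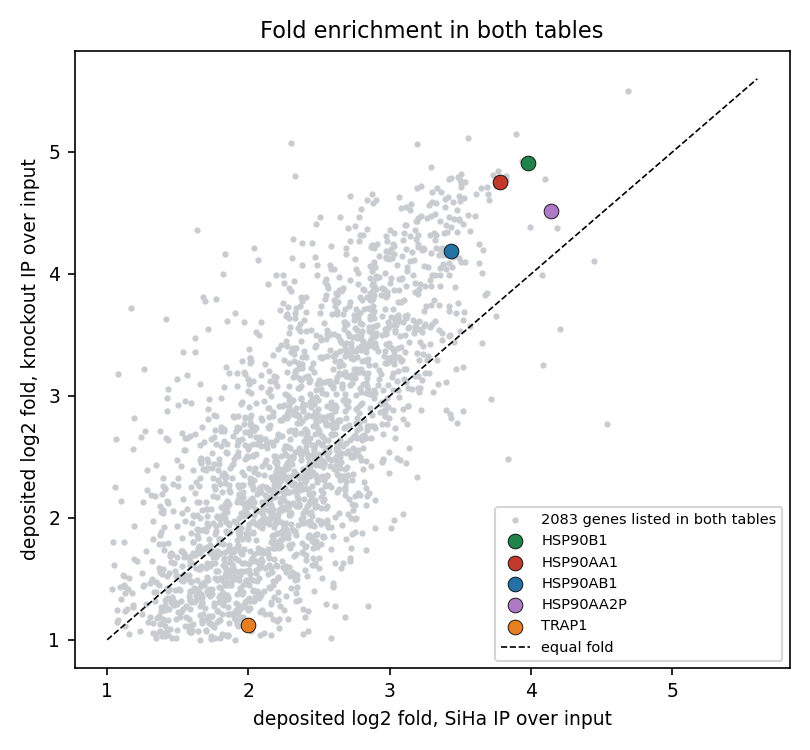
Deposited log2 fold of IP over input in the knockout against that in SiHa for 2083 genes listed in both tables, with the dashed line marking equal folds. The 4 HSP90 genes lie in the upper right corner above the line, and TRAP1 lies below it at 2.00 in SiHa and 1.12 in the knockout.

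Most other genes with a high fold in SiHa also had a higher fold in the knockout. By the folds of the authors' deposited tables, a total of 285 shared genes had a log2 fold of at least 3 for SiHa, and 235 of these (82.5%) had a higher fold for the knockout. Their median difference was 0.62, with quartiles of 0.15 and 0.99, and all 4 members lay inside these quartiles. The 3 coding members were above that median and the copy below it. The set starts at a lower fold than that of any member, the lowest being 3.43 for HSP90AB1 in SiHa. This comparison was added after the values were seen. Genes of similar IP level were also set beside the coding members. The shared genes in the top 5% of SiHa IP level numbered 105, with a median difference of 0.21 and quartiles of -0.26 and 0.84 in the authors' deposited tables. HSP90AA1 and HSP90B1 were above that upper quartile and HSP90AB1 was below it. Outside the family, 7 shared genes were among the 10 highest IP levels of either table, a set chosen after its values were seen. Their differences ran from -0.22 for the ferritin gene FTH1 to 0.62 for the linker histone gene HIST1H1C. Of the 7, 3 were higher in the knockout, against 60.1% of all shared genes. HSPA8, the constitutive HSP70 chaperone, had, by the authors' deposited tables, log2 folds of 2.99 in SiHa and 2.82 in the knockout, a difference of -0.17.

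The deposited input levels of all 4 members were lower in the knockout, but for HSP90AB1 this direction turned with centring on the shared genes. Input levels in SiHa were 1.80 times those in the knockout for HSP90B1, 1.62 times for HSP90AA1, 1.55 times for HSP90AA2P and 1.34 times for HSP90AB1. Among shared genes 75.3% had a lower input level in the knockout, at a median of -0.52 for the log2 ratio (knockout over SiHa), so most of this decrease was shared with other genes. Relative to that median the log2 ratio was -0.32 for HSP90B1, -0.17 for HSP90AA1, -0.10 for HSP90AA2P and 0.10 for HSP90AB1. The 2 tables were normalised separately, so the direction of its input depends on the scaling.

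The deposited IP levels were higher in the knockout for the 3 coding members and slightly lower for the copy, directions that depend on the scaling for all of them but HSP90AB1. The ratio of knockout to SiHa IP level was 1.44 for HSP90AB1, 1.38 for HSP90AA1, 1.21 for HSP90B1 and 0.964 for HSP90AA2P. A higher deposited IP level was seen in 44.6% of shared genes, and a higher deposited IP level together with a lower deposited input level in 23.8% of them and in 3 of the 4 members. The median log2 ratio of IP level over shared genes was -0.12. Relative to that median the log2 ratio was 0.65 for HSP90AB1, 0.59 for HSP90AA1 and 0.40 for HSP90B1. The copy had 0.07, so its direction depends on the scaling too.

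Scaled to library totals, the HSP90 share of the IP was nearly the same in both cell lines, while their share of the input was lower in the knockout. Totals over all genes tested were taken from the sampling model behind the deposited p-values, and the knockout totals were 1.42 times those of SiHa for IP and 1.25 times for input. The 4 members together held 2.10% of the summed IP level in SiHa and 1.94% in the knockout. They held 0.151% of the summed input level in SiHa and 0.0758% in the knockout. On this scale the direction of the IP change turned for HSP90AA1 and HSP90B1: the log2 ratio of knockout to SiHa IP share was -0.04 for HSP90AA1, 0.01 for HSP90AB1, -0.23 for HSP90B1 and -0.56 for HSP90AA2P. The share was higher in the knockout for 1 of the 4 members and for 24.9% of shared genes, whose median was -0.63.

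Scaled to library totals, the input share was lower in the knockout for each member; for HSP90AB1 alone this direction turned with centring. HSP90B1 had 0.0601% of the input level in SiHa and 0.0268% in the knockout, HSP90AA1 0.0550% and 0.0273%, and HSP90AB1 0.0356% and 0.0213%. The SiHa share was 2.24 times that of the knockout for HSP90B1, 2.02 times for HSP90AA1, 1.93 times for HSP90AA2P and 1.67 times for HSP90AB1. A lower input share in the knockout was seen in all 4 members and in 87.2% of shared genes, at a median log2 ratio of -0.84. By arithmetic the difference in deposited log2 fold is the log2 ratio of IP shares minus that of input shares. For HSP90AA1 this is -0.04 minus -1.01, so that on this scale its 0.97 higher log2 fold lay in the input term. With centring on the shared genes, the log2 ratio of HSP90AA1 was instead 0.59 for IP and -0.17 for input. It was 0.40 and -0.32 for HSP90B1, and 0.65 and 0.10 for HSP90AB1. The split between IP and input thus depends on the scaling. The share among listed genes alone moved the other way, from 3.04% of the IP level in SiHa to 5.07% in the knockout, where fewer genes were listed.

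**Figure D4:**
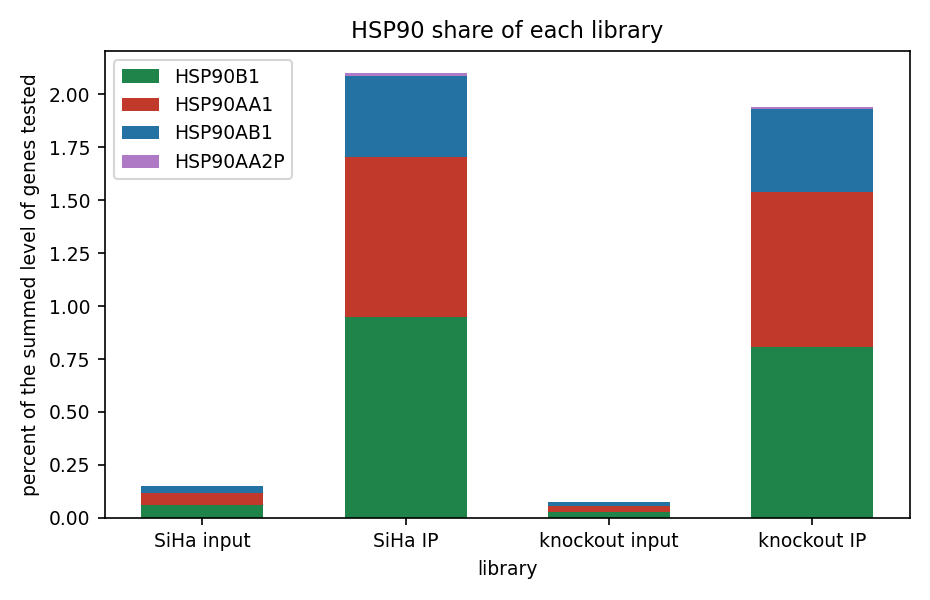
Percent of the summed level of all genes tested that each HSP90 gene held in each of the 4 libraries, as stacked bars from 0 with 1 library per bar. The stack reaches 2.10% in the SiHa IP and 1.94% in the knockout IP, and 0.151% and 0.0758% in the inputs.

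The balance between the forms differed between input and IP. HSP90AB1 had 0.646 times the level of HSP90AA1 in the SiHa input and 0.509 times in the SiHa IP, and 0.782 and 0.529 times in the knockout. HSP90B1 had 1.09 times the level of HSP90AA1 in the SiHa input and 1.26 times in the SiHa IP, and 0.983 and 1.10 times in the knockout. Each such ratio compares 2 genes within a library, and any effect of transcript length is alike in all 4. Relative to HSP90AA1, the IP thus held less of the beta form and more of the ER form than the input in both cell lines. These ratios follow from the folds, on which the members were chosen.

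TRAP1, the mitochondrial member of the HSP90 family (ENSG00000126602, chromosome 16, 3658037 to 3717524), is outside the rule and had another pattern. Its level was 44.6 in the SiHa IP, 22.5 in the SiHa input, 14.7 in the knockout IP and 11.9 in the knockout input. Both knockout values were lower, the IP by the larger factor. In the authors' deposited tables TRAP1 had a log2 fold of 2.00 in SiHa and 1.12 in the knockout, where its deposited adjusted p was 0.180. Its knockout minus SiHa difference was -0.87, and 97.4% of shared genes had a higher difference. Its fold was rank 1933 in SiHa, close to the middle of the list, and rank 2276 of 2340 in the knockout. Its promoter held neither of the elements searched.

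Genes with the most similar pattern over the 4 libraries were found by the Euclidean distance between log2 level profiles, each centred on its own mean, among the 2083 shared genes. Nearest to HSP90AA1 were MFAP1, at a distance of 0.12, and PPP1R12A at 0.14. MFAP1 encodes a protein of the spliceosome, and PPP1R12A the targeting subunit of myosin phosphatase. Nearest to HSP90AB1 were TTF1 at 0.12, CRNKL1 at 0.14 and IWS1 at 0.16. TTF1 is a terminator of ribosomal RNA transcription, CRNKL1 a splicing factor and IWS1 a partner of the elongation factor SPT6. Nearest to HSP90B1 were HSP90AA1 at 0.25 and HSP90AA2P at 0.30, ahead of MFAP1 at 0.36. Nearest to HSP90AA2P was LEO1, part of the PAF1 transcription elongation complex, at 0.16, then HSP90B1 and HSP90AA1 at 0.30 and 0.38. The median distance of shared genes from a member lay between 1.73 for HSP90AB1 and 2.27 for HSP90B1. HSP90AB1 was the odd one of the family, at 0.50 to 0.73 from the other members. These neighbours have far lower levels than the coding members: the IP level in SiHa was 65.1 for MFAP1 and 26.5 for TTF1.

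Within each table the members' neighbours by fold were mostly genes of much lower IP level. In SiHa the authors' deposited table put HSP90B1 between LEO1 at 3.99 and HTATSF1 at 3.93, whose IP levels were 69.0 and 73.7. HSP90AA1 stood between MNS1 and ANP32B, which the authors' deposited table put at 3.78 and 3.77, and ANP32B, a histone chaperone, had an IP level of 568. In the knockout HSP90B1 again stood next to HTATSF1, at 4.92 in the authors' deposited table, with CCDC34 below it at 4.88. With 1 library per group none of these neighbours can be told apart from a member.

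The co-chaperones, which load clients on HSP90 and drive its cycle, had lower folds than the HSP90 members. The members were chosen on their folds, so nothing is read from that contrast. Of 36 co-chaperones listed by hand, 18 were in the SiHa table and 13, or 36.1%, in the knockout table, against 27.0% and 21.2% of all genes tested. Levels were not matched, and their part in these shares was not tested. Their median log2 fold was 2.01 in SiHa and 2.41 in the knockout, close to the 2.04 and 2.43 of all listed genes in the authors' deposited tables. All 13 of the knockout were listed in SiHa as well.

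STIP1, the adaptor HOP that links HSP70 to HSP90, was the one co-chaperone near the members. Its level was 232 in the SiHa IP, 47.7 in the SiHa input, 255 in the knockout IP and 30.1 in the knockout input. The deposited IP level was higher in the knockout, by 0.14 in log2, but scaled to library totals the log2 ratio of knockout to SiHa was -0.37. The input was lower in the knockout, at a log2 ratio of -0.67 as deposited and -0.98 scaled to totals. The authors' deposited tables gave log2 folds of 3.29 and 3.90, a difference of 0.61. CDC37, the adaptor for kinase clients, had log2 folds of 2.39 in SiHa and 2.93 in the knockout, and PPP5C, a phosphatase of the complex, 2.65 and 2.41 in the authors' deposited tables. FKBP5, a prolyl isomerase of steroid receptor complexes, had a log2 fold of 2.50 in the SiHa table of the authors' deposited tables and was not listed in the knockout.

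The co-chaperones did not move one way between the tables. Of 13 listed in both, 7 had a higher fold in the knockout and 6 in SiHa. Among all shared genes 60.1% had a higher fold in the knockout, so a mixed direction was not particular to the co-chaperones. The largest differences in log2 fold were those of RPAP3, a subunit of the R2TP assembly complex, at 1.38 and of DNAJC7, a J-domain protein, at 1.08. RPAP3 went from an IP level of 14.9 in SiHa to 44.9 in the knockout, with 7.47 and 7.56 in the inputs. In the other direction stood RUVBL2, an ATPase of R2TP, at -0.52, with an IP level of 41.5 in SiHa and 15.1 in the knockout, and its partner RUVBL1 differed by -0.04. AHSA1, which activates the HSP90 ATPase, SGTA, TOMM34, TTI1 and FKBP5 were listed in SiHa only, 5 of 18 against 42.9% of all SiHa-listed genes. A gene that is not listed either missed the thresholds or was not tested, and its level there is not known.

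**Figure D5:**
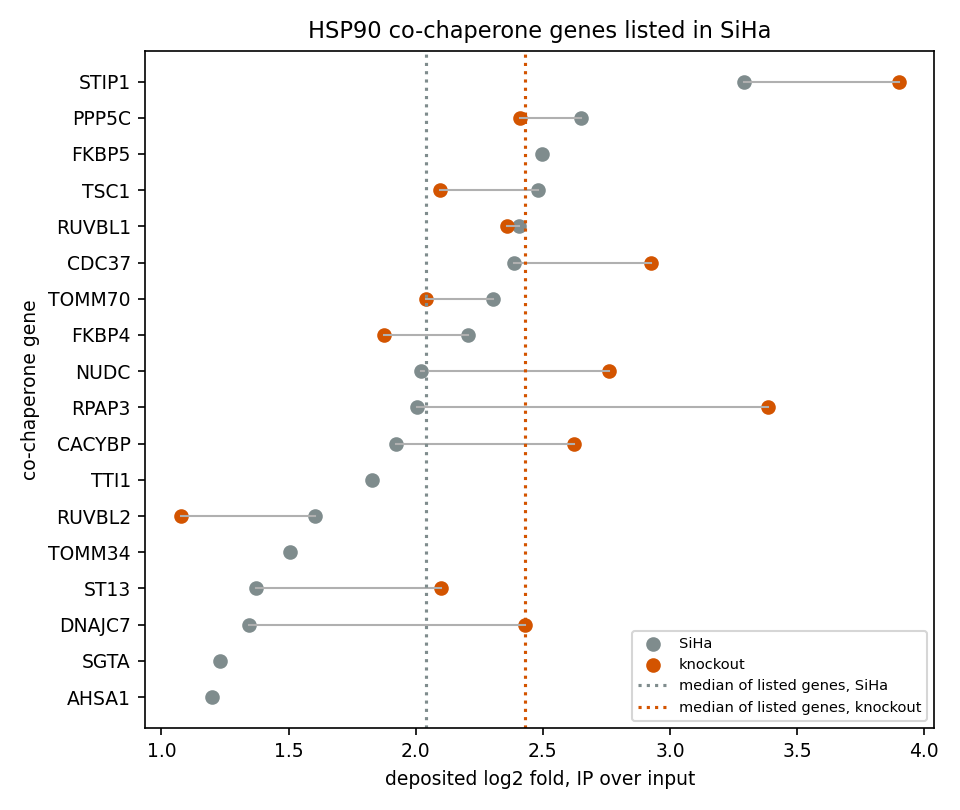
Deposited log2 fold of IP over input for the 18 HSP90 co-chaperone genes listed in SiHa, grey for SiHa and orange for the knockout, with dotted lines at the medians of all listed genes and no orange point where a gene was not listed in the knockout. STIP1 leads in both tables, and RPAP3 has the longest line towards the knockout.

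Fewer client genes of cytosolic HSP90 were listed in the knockout. Of 32 clients 15 were listed in SiHa and 4 in the knockout (46.9% and 12.5%), against 27.0% and 21.2% of all genes tested. Of the SiHa-listed clients 11 of 15 were missing from the knockout table, against 42.9% of SiHa-listed genes in general. The 4 listed in both were ARAF, HIF1A, RIPK1 and WEE1. Their differences in log2 fold, knockout minus SiHa, were -0.60, under 0.01 in size, -0.16 and 0.11 in the authors' deposited tables. Those in SiHa only included EGFR, MET, IGF1R, INSR, PDPK1, PLK1, MAPK7, CHUK and the glucocorticoid receptor gene NR3C1. The deposited adjusted p in SiHa was 0.0884 for IGF1R and 0.163 for MAPK7. At an adjusted p of at most 0.05, 13 clients were listed in SiHa and 3 in the knockout. Levels were not matched, and their part in these shares was not tested. The SiHa folds of listed clients were moderate, with a median log2 fold of 2.03 and a highest value of 2.56, that of HIF1A, in the authors' deposited table. All 15 were thus below the lowest HSP90 member, HSP90AB1 at 3.43, but the members were chosen on their folds.

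Regulators of heat shock and of the unfolded protein response, among them factors that bind elements like those shown above, were listed about as often as genes in general. Of 12 such genes 4 were in the SiHa table (33.3%) and 2 in the knockout table (16.7%), against 27.0% and 21.2% of all genes tested. The ER stress sensor gene ATF6 had log2 folds of 2.37 and 2.26, and the kinase gene EIF2AK1 2.39 and 2.24, in the authors' deposited tables. EIF2AK3, which encodes the sensor PERK, and the deacetylase gene HDAC6 were listed in SiHa only. Their SiHa IP levels were low, at 9.72 and 10.4, and their deposited adjusted p there was 0.0273 and 0.156. HSF1, the main heat shock factor, was not listed in either table. Of 18 partners and clients of the ER form, against the same shares of all genes tested, only the WNT co-receptor gene LRP6 was listed, in SiHa, where the authors' deposited table gave a log2 fold of 1.27 and an adjusted p of 0.0699.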

How the data were processed

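The 4 libraries were 1 IP and 1 input for SiHa and for the YTHDF3 knockout. FastQC 0.11.7, GRCh38 and hg38 come from the submitters' processing notes. The sources used here name no aligner, counting tool or strand setting. Per the file headers, the authors deposited a log2 fold, a p-value, an adjusted p-value and a level per gene in IP and input. Levels as deposited have no named unit and were used as signal. The IP column of each table was taken as the one without the word input in its name; its lane differs from the sample's title or is absent there. All rows had a log2 fold of at least 1 and a p-value of at most 0.0500. The number of genes tested was recovered from the ratio of p to adjusted p, and the totals (243482 IP and 489144 input in SiHa, 346840 and 609494 in the knockout) from the MA-plot model with random sampling, with a largest deviation of 0.0021 in log10 p. If every p-value were rounded as coarsely as the small ones, SiHa IP totals from 242800.3 to 244334 would be allowed. Larger p-values were deposited with more digits, so this range is only a rough guide. Both steps were tested on data simulated with the same model, which checks the code and not the model itself. Tables were joined by Ensembl identifier (0 duplicates). Levels set across tables come from separately normalised tables. Python 3.11.15, pandas 2.3.3 and scipy 1.17.1 were used. No test was run. The genes named were the members, the hand-written pathway lists, the 3 most alike profiles and the rank neighbours of each member. Some genes that this rule names are not reported here. Members and lists were chosen with earlier results of these data known.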

Additional observations from a re-analysis of the deposited data

How the results depend on the processing

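Sequencing depth is unknown and there were no replicates, so any shift of 0.005 or more is given as a move. Without the constant the 4 genes had a median log2 fold of 2.87 (SiHa) and 3.82 (knockout), with centring on listed genes 1.84 and 2.21, and with 1 added to every level 3.81 and 4.46. With HSP90AA1 and HSP90AA2P summed into 1 entry, the median was 3.78 and 4.75. The log2 ratio of SiHa to knockout fold, -0.84 in the median, was -1.04 without constants, -0.68 with centring and -0.93 with that summed entry. No member changed sign in any of these, but without constants HSP90AA1 (-1.16) and HSP90B1 (-1.13) passed a doubling of the fold. The median log2 ratio of IP level, knockout over SiHa, was 0.37 as deposited, 0.49 with centring and -0.14 scaled to totals, where HSP90AA1 turned to -0.041 and HSP90B1 to -0.23; HSP90AA2P turned to 0.067 with centring. For the input it was -0.66, and -0.14 with centring, where HSP90AB1 turned (0.10), -0.58 with 1 added and -0.98 scaled to totals. The scaling to totals was chosen after seeing the data. With genes listed in both tables as denominator the members held 3.94% of the SiHa IP, 1.53% of the SiHa input, 5.27% of the knockout IP and 1.32% of the knockout input, and over all genes tested 2.10%, 0.151%, 1.94% and 0.0758%. The median rank by fold, 15.5 in SiHa and 39.5 in the knockout, was 9 and 38 at or above the median level and 14 and 39 among shared genes. Among protein-coding genes, which leaves out the pseudogene HSP90AA2P, it was 14 and 19. At an adjusted p of at most 0.05 the count of ER partners and clients in SiHa went from 1 to 0, and the other list counts kept within 1.5 times. No paired analysis was possible because each group holds 1 library.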

Other observations

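HIF1A, the hypoxia-inducible factor and an HSP90 client, had nearly the same deposited log2 fold in both tables, which the authors' deposited tables give as 2.56 for both lines, at very different levels. Its level was 272 in the SiHa IP and 1013 in the knockout IP, and 92.5 in the SiHa input and 302 in the knockout input. IP and input levels were both higher in the knockout. WEE1, a cell cycle kinase and client, kept a similar fold at lower levels, with an IP level of 35.5 in SiHa and 9.13 in the knockout and input levels of 13.8 and 2.88. Each value rests on 1 library.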
